A study of Drosophila melanogaster with 6 samples.

Results

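Leucine is inserted at more codons than almost any other amino acid, and its cytosolic tRNAs fall into 5 anticodon groups. This account describes the nuclear leucine tRNAs of the *Drosophila* larval brain, chosen as every nuclear tRNA in the deposited table whose name begins with Leu. They are 9 of the 84 nuclear tRNAs and of the 106 tRNAs listed in all, the other 22 being mitochondrial. Each is an isodecoder: 1 mature sequence, of which several can carry the same anticodon. Names ending in X belong to sequences with multiple gene copies, whose reads are counted as 1 value. The names write T for the U of the anticodon.

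The tRNAs were measured by hydro-tRNAseq, in which tRNAs are broken into short fragments before sequencing so that modified bases block fewer reads. Neuroblast-biased brains came from insc-Gal4>UAS-aPKC_caax larvae, in which the insc driver expresses membrane-targeted aPKC in neuroblasts, the neural progenitors, and makes them divide symmetrically. Neuron-biased brains came from Oregon R (Oregon-R-P2 in the study's methods), a wild-type strain that carries neither the driver nor the transgene, so strain background and transgenes cannot be told apart from the cell type. Each group had 3 samples of L3 (third-instar) brains, raised at 25 °C according to the sample labels. The age of the larvae is stated in differing ways in the study's text, each time the same for both genotypes. Both kinds of brain were dissected whole. The wild-type brains consist mostly of neurons but also hold neuroblasts and glia, and the ectopic-neuroblast brains still hold a few neurons. The table lists tRNAs alone, so the labelled cell types could not be checked on marker genes.

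For each tRNA the table holds 1 mean per group in TMM, a read count normalized between libraries by the trimmed mean of M-values. Neither the values of the single samples nor their depth are given here, so every value below is the authors' mean without an error, no difference could be set against the spread between replicates, and none was tested. Differences are given as the log2 ratio of the neuroblast-biased over the neuron-biased mean. The median log2 ratio over all 84 nuclear isodecoders was −0.27, and ratios are also given relative to it. In whole brains, fewer cells that contain a tRNA and less of that tRNA per cell cannot be told apart.

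A tRNA reads a codon through the 3 bases of its anticodon, and the third codon position tolerates wobble pairs. Leucine has 6 codons. The 4 codons CUU, CUC, CUA and CUG form a box that codes for leucine only, and they are read by Leu-AAG, Leu-TAG and Leu-CAG. The first base of the AAG anticodon is converted to inosine in eukaryotes, which lets Leu-AAG read both CUU and CUC. The 2 remaining codons share their box with phenylalanine. Leu-TAA reads UUA and can wobble onto UUG, and Leu-CAA reads UUG. Leucine tRNAs carry a long variable arm, and the Leu-CAA genes of *Drosophila* contain an intron that is removed from the precursor.

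The leucine tRNAs were lower in neuroblast-biased brains as a pool. Their summed mean TMM was 597563 in neuroblast-biased and 912056 in neuron-biased brains, a log2 ratio of −0.61, or 1.53-fold higher in neuron-biased brains. Of the 9 isodecoders, 7 had a lower mean in neuroblast-biased brains, and 67.9% of all nuclear isodecoders did so as well. A log2 ratio of −0.5 or lower was found for 6 of the 9 and for 33.3% of all nuclear isodecoders. As deposited, none of the 9 had a ratio of 0.5 or higher, which 8.33% of the nuclear isodecoders had. With the nuclear median set to 0, the count of 6 went down to 1, Leu-CAA-1-1, while 14.3% of the nuclear isodecoders were past the same limit. On the high side, Leu-TAA-3-1 at 0.51 and Leu-TAA-1-1 at 0.68 were then past 0.5. They ranked 68 and 74 of the 84 nuclear isodecoders in ascending log2 ratio. Every nuclear isodecoder from rank 68 to rank 84 was past the same limit, so the pair does not stand out from the others. The median log2 ratio was −0.55 over the leucine isodecoders and −0.22 over the 75 other nuclear isodecoders.

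**Figure D1:**
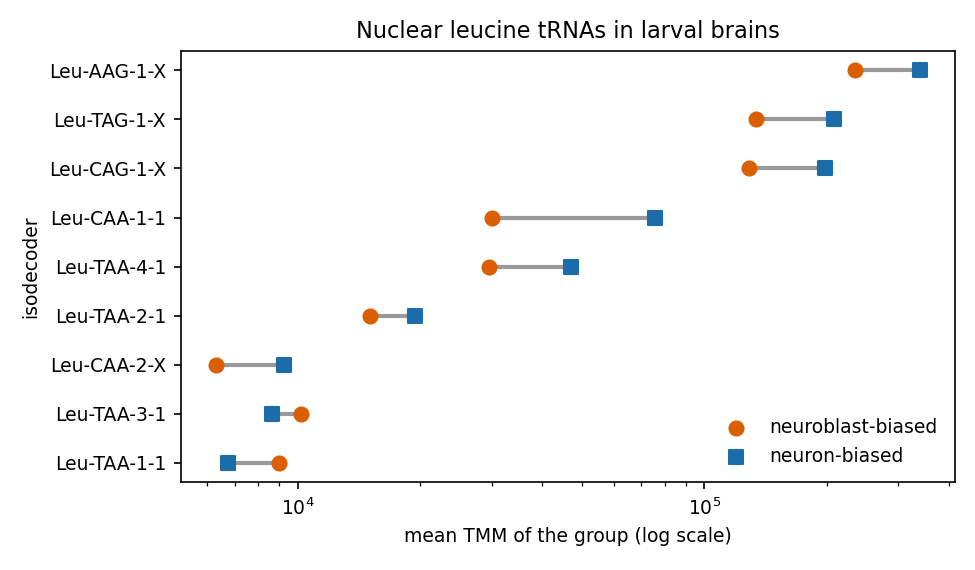
Mean TMM of each leucine isodecoder (log scale, TMM not divided by length) in neuroblast-biased (circles) and neuron-biased brains (squares), as the authors' group means without error. Leu-CAA-1-1 has the widest gap, and the means of Leu-TAA-3-1 and Leu-TAA-1-1 are the ones higher in neuroblast-biased brains.

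The readers of the four-codon box were the abundant leucine tRNAs in both kinds of brain. Leu-AAG-1-X, the reader of CUU and CUC, had a mean TMM of 234776 in neuroblast-biased and 338431 in neuron-biased brains. Leu-TAG-1-X, which pairs with CUA, had 133908 and 208318. Leu-CAG-1-X, which pairs with CUG, had 128667 and 198541. All 3 were lower in neuroblast-biased brains, and by a similar amount. Their log2 ratios were −0.53, −0.64 and −0.63 in that order, a range of 0.11. Relative to the nuclear median they were −0.26, −0.37 and −0.36. The level of Leu-CAG was 0.961 times that of Leu-TAG in neuroblast-biased and 0.953 times in neuron-biased brains, so the proportion of these readers hardly differed. Leu-AAG was 1.75 times Leu-TAG in neuroblast-biased and 1.62 times in neuron-biased brains.

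Leu-CAA-1-1, the main reader of UUG, had the lowest log2 ratio of the leucine tRNAs. Its mean TMM was 30102 in neuroblast-biased and 75746 in neuron-biased brains. The level in neuron-biased brains was 2.52-fold higher, a log2 ratio of −1.33. This ratio is the lowest but 1 of the 84 nuclear isodecoders, and it remained at −1.06 relative to the nuclear median. Relative to the leucine pool it was −0.72, a value that no scaling of the groups can move. On that scale Leu-TAA-3-1 at 0.85 and Leu-TAA-1-1 at 1.03 lay farther from the pool, on the high side. The log2 ratio of Leu-CAA-1-1 was the low extreme of the leucine tRNAs only. The nuclear isodecoders of other amino acids with the nearest log2 ratios were Pro-CGG-1-1 at −1.37, with 8382 and 21619 TMM, and Tyr-GTA-2-1 at −1.29, with 1588 and 3875 TMM. Leu-CAA-2-X, which bears the same anticodon, had a mean TMM of 6292 in neuroblast-biased and 9237 in neuron-biased brains. Its log2 ratio of −0.55 was close to that of the four-codon box readers. Leu-CAA-1-1 was 4.78 times as abundant as Leu-CAA-2-X in neuroblast-biased and 8.20 times in neuron-biased brains. The Leu-CAA group as a sum had a log2 ratio of −1.22, the lowest of 45 anticodon groups.

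The Leu-TAA isodecoders, which read UUA, did not share a direction. Leu-TAA-4-1 had a mean TMM of 29559 in neuroblast-biased and 46968 in neuron-biased brains, a log2 ratio of −0.67. Leu-TAA-2-1 had 15026 and 19423, a log2 ratio of −0.37. The other pair was higher in neuroblast-biased brains. Leu-TAA-3-1 had 10222 in neuroblast-biased and 8637 in neuron-biased brains, a log2 ratio of 0.24. Leu-TAA-1-1 had 9010 and 6755, a log2 ratio of 0.42. These were the 2 leucine isodecoders with the lowest means in neuron-biased brains. Relative to the nuclear median, both directions held. Leu-TAA-4-1 was then at −0.40, Leu-TAA-2-1 at −0.10, Leu-TAA-3-1 at 0.51 and Leu-TAA-1-1 at 0.68. The isodecoders of other amino acids nearest to Leu-TAA-1-1 in log2 ratio were Val-AAC-1-X and Thr-TGT-1-1, both at 0.43.

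The make-up of the Leu-TAA group therefore differed between the groups of brains. Leu-TAA-4-1 held 46.3% of the group in neuroblast-biased and 57.4% in neuron-biased brains. Leu-TAA-1-1 and Leu-TAA-3-1 together held 30.1% and 18.8%. Their sum was 19232 in neuroblast-biased and 15392 in neuron-biased brains, while that of Leu-TAA-2-1 and Leu-TAA-4-1 was 44584 and 66391. The opposite directions partly offset each other, and the group as a whole had 63817 in neuroblast-biased and 81784 in neuron-biased brains, a log2 ratio of −0.36. This was the smallest difference of the 5 leucine groups and −0.09 relative to the nuclear median. Multi-mapped reads were split between references, so the values of isodecoders with similar sequences are not fully separate, and the low means are the most open to this. Its part in the opposite directions was not tested.

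**Figure D2:**
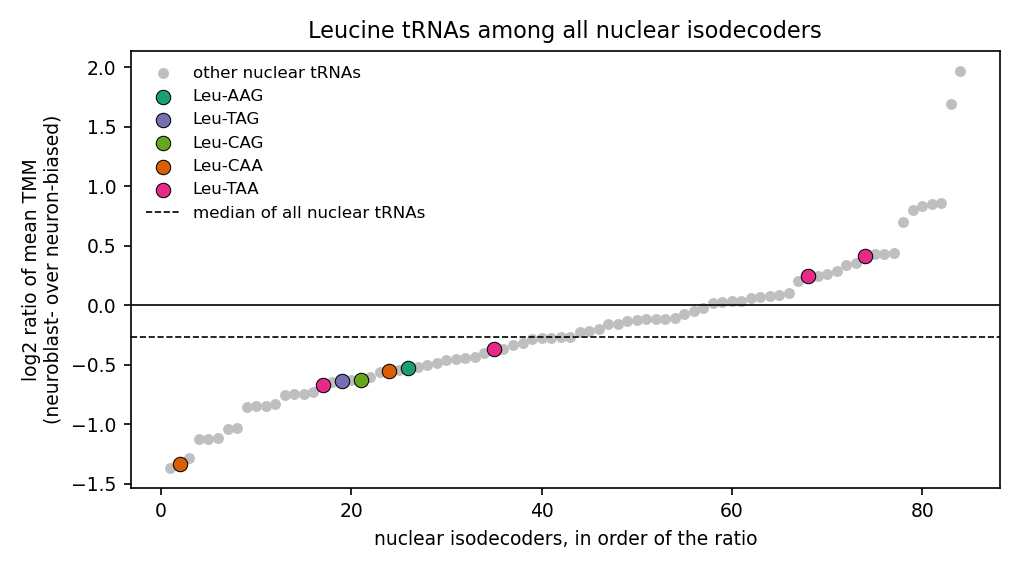
Log2 ratio of the mean TMM (neuroblast- over neuron-biased) of all 84 nuclear isodecoders in ascending order, with the leucine isodecoders coloured by anticodon and the nuclear median of −0.27 as a dashed line. Leu-CAA-1-1 at −1.33 lies at the low end, the four-codon box readers lie between −0.64 and −0.53, and the Leu-TAA isodecoders spread from −0.67 to 0.42.

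The order of the leucine isodecoders by level was set beside tRNA length, since TMM is not divided by length. The annotated genes other than Leu-CAA are 80 to 84 bp long. Per base, Leu-AAG-1-X had 2863 TMM in neuroblast-biased and 4127 in neuron-biased brains, and Leu-TAG-1-X had 1674 and 2604. Leu-CAG-1-X followed with 1550 and 2392 TMM per base. The Leu-TAA isodecoders came after these in the order 4-1, 2-1, 3-1 and 1-1, from 352 down to 107 TMM per base in neuroblast-biased and from 559 down to 80.4 in neuron-biased brains. The order was the same in both groups. The length of mature Leu-CAA is not given in the sources used here. Leu-CAA-1-1 and Leu-TAA-4-1, whose TMM differed by a factor of 1.02 in neuroblast-biased brains, can therefore not be placed in order there. In neuron-biased brains the factor was 1.61.

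In shares of the leucine pool, summed over the isodecoders of each anticodon, Leu-AAG made up 39.3% of the TMM in neuroblast-biased and 37.1% in neuron-biased brains. Leu-TAG made up 22.4% and 22.8%, and Leu-CAG made up 21.5% and 21.8%. Leu-TAA made up 10.7% in neuroblast-biased and 8.97% in neuron-biased brains. Leu-CAA made up 6.09% and 9.32%. The share of Leu-CAA differed by −3.23 percentage points in neuroblast-biased brains, against 2.18 for Leu-AAG and 1.71 for Leu-TAA. Which share differed most depends on how isodecoders are combined. With averages over the isodecoders of an anticodon, the differences were 2.30 points for Leu-AAG and −1.83 for Leu-CAA. The TMM of Leu-TAA was 1.75 times that of Leu-CAA in neuroblast-biased and 0.962 times in neuron-biased brains. With averages over isodecoders, Leu-CAA exceeded Leu-TAA in both, with 3.42% against 3.00% of the pool in neuroblast-biased and 5.26% against 2.53% in neuron-biased brains. Per base, the summed Leu-TAA lay above Leu-CAA in neuroblast-biased brains whichever length was taken for Leu-CAA. In neuron-biased brains the order turned with that length: Leu-TAA had 8.72% of the pool per base and Leu-CAA 9.52% with the length of the shortest leucine gene, and 9.04% and 6.23% with the full gene span.

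**Figure D3:**
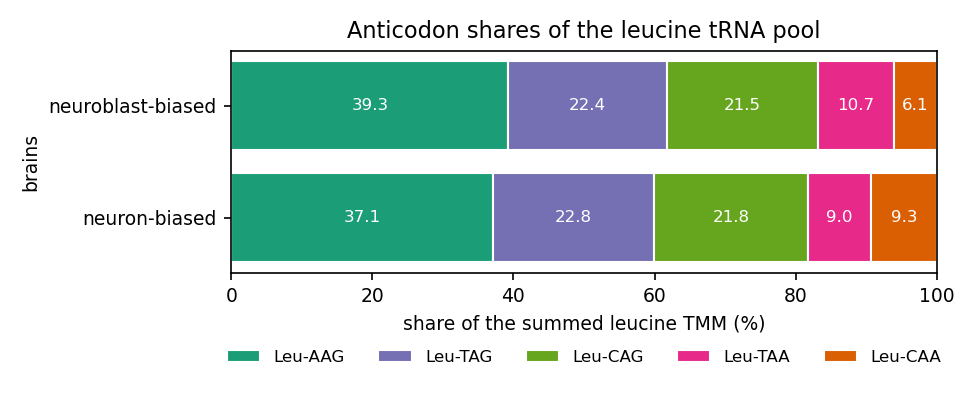
Share of each anticodon group in the summed TMM of the leucine tRNAs (percent, isodecoders summed, not divided by length) in neuroblast-biased and neuron-biased brains. The share of Leu-CAA is 6.09% against 9.32%, and the shares of Leu-TAG and Leu-CAG differ by less than those of the other anticodons.

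The four-codon box readers were compared with the sum of Leu-CAA and Leu-TAA. The box readers summed to 497351 TMM in neuroblast-biased and 745290 in neuron-biased brains, a log2 ratio of −0.58. Leu-CAA and Leu-TAA summed to 100211 and 166766, a log2 ratio of −0.73. The box readers held 83.2% of the leucine pool in neuroblast-biased and 81.7% in neuron-biased brains. Both sets were lower in neuroblast-biased brains, and the log2 ratios differed by 0.15. This difference had no settled direction. It was −0.23 without Leu-CAA, 0.64 without Leu-TAA and −0.22 when the log2 ratios of the isodecoders were averaged. The isodecoders of Leu-CAA and Leu-TAA spanned 1.75 on the log2 scale, against 0.11 for the box readers. The wider span covers 6 isodecoders, all with lower means, and the narrower covers 3. How far number and level widen the span was not tested. Of the difference in TMM between the leucine pools, Leu-AAG accounted for 33.0%, Leu-TAG for 23.7%, Leu-CAG for 22.2%, Leu-CAA for 15.4% and Leu-TAA for 5.71%.

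Among the tRNA pools of 21 amino acids, selenocysteine included and both kinds of methionine tRNA joined, leucine had the fifth lowest log2 ratio. Glutamate at −0.60, alanine at −0.47 and glycine at −0.78 were nearest to the −0.61 of leucine. The lowest pool was tyrosine at −1.12 and the highest selenocysteine at 0.70. Leucine tRNAs took 4.44% of the summed nuclear TMM in neuroblast-biased and 5.51% in neuron-biased brains. From the lowest to the highest anticodon group, the log2 ratio within the leucine pool spanned 0.87, next to serine with 1.43 and before valine with 0.82. Of the leucine TMM, 3.90% lay with other anticodons in neuroblast-biased than in neuron-biased brains. This ranked 10 of the 13 pools with more than 1 group, initiator and elongator methionine tRNA being counted as separate groups, and it was 11.3% for valine and 6.63% for serine.

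**Figure D4:**
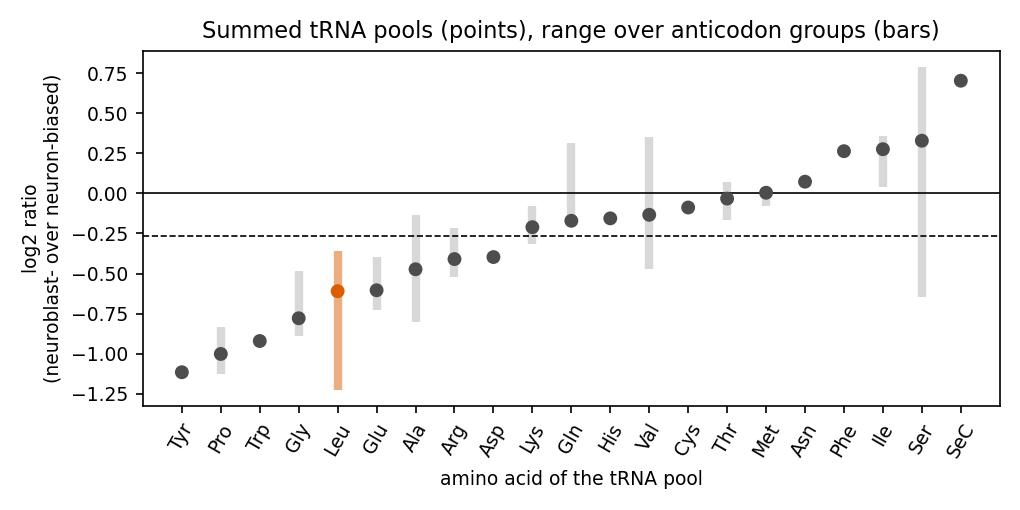
Log2 ratio (neuroblast- over neuron-biased) of the summed TMM of each amino acid's nuclear tRNAs (points), the range of its anticodon groups (bars) and the nuclear median of −0.27 (dashed line). Leucine, in orange, lies at −0.61 with anticodon groups from −1.22 to −0.36.

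The supply of each leucine codon was calculated with the formula of the tRNA adaptation index (tAI), which sums the TMM of the tRNAs that read a codon and reduces wobble pairs by a penalty, here 0.28 for inosine with C and 0.68 for U with G. CUG, read by Leu-CAG and through wobble by Leu-TAG, had a weight of 171518 TMM in neuroblast-biased and 265203 in neuron-biased brains. The wobble reader Leu-TAG supplied 25.0% of it in neuroblast-biased and 25.1% in neuron-biased brains. UUG, read by Leu-CAA and through wobble by Leu-TAA, had a weight of 56816 and 111153. Its log2 ratio of −0.97 was the lowest of the 6 codons, and Leu-TAA supplied 35.9% of the weight in neuroblast-biased and 23.5% in neuron-biased brains. UUA, read by Leu-TAA alone, had a log2 ratio of −0.36, the highest of the codons.

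Relative to CUU, the codon with the largest weight in both groups, UUG had 0.242 in neuroblast-biased and 0.328 in neuron-biased brains, and UUA had 0.272 and 0.242. CUG had 0.731 and 0.784, and CUA had 0.570 and 0.616. On this scale, which is not per base, the order of UUA and UUG thus differed between the groups of brains. This order depends on how isodecoders are combined, and the study averaged them to measure its anticodon groups. With an average over isodecoders in place of the sum, the 4 isodecoders of Leu-TAA count for less, and UUA had 0.0680 and 0.0604 while UUG had 0.0993 and 0.145. UUG then lay above UUA in both. CUC was 0.720 in both groups under either way by construction. Leu-AAG is the only reader of CUC and CUU here, so the penalty for inosine with C alone sets this value. The study reports a higher index for CUC in neuroblasts than in neurons, a difference that the present calculation cannot show. The penalties behind the study's index are not listed in its text.

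**Figure D5:**
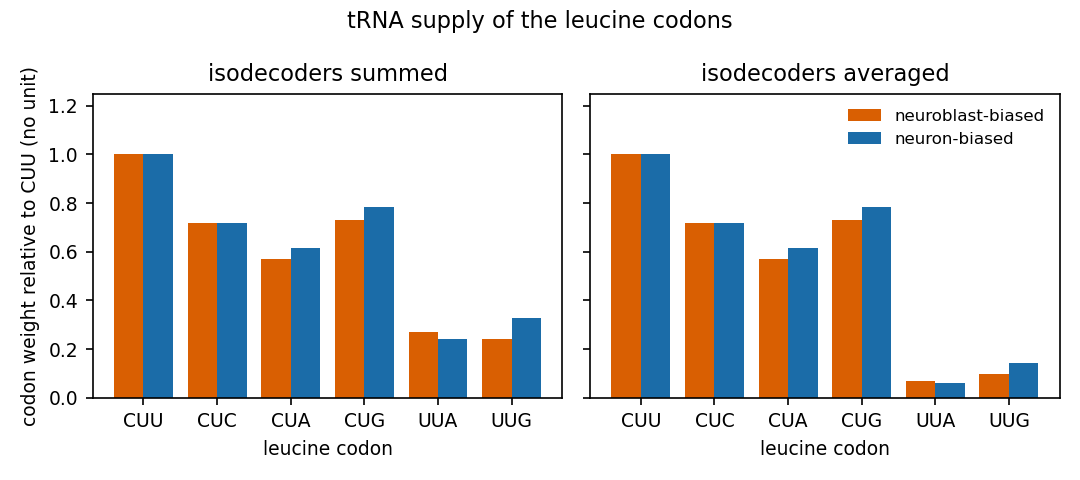
Weight of each leucine codon relative to CUU (no unit), with the isodecoders of an anticodon summed (left) or averaged (right), in neuroblast-biased and neuron-biased brains. With sums, UUA exceeds UUG in neuroblast-biased brains (0.272 against 0.242) and lies below it in neuron-biased brains (0.242 against 0.328).

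The leucine isodecoders are encoded by 22 genes in the RefSeq annotation of Release 6, with 7 on chromosome arm 2R, 8 on 3L, 6 on 3R and 1 on 2L. Leu-CAG-1-X has 8 genes, of which 6 lie in a cluster on 3L from 8060214 to 8068290, and 3 of those are within the span of *Sarm*. Leu-AAG-1-X has 4 genes, all on 2R. Both genes of Leu-TAG-1-X lie on 3R, from 30247964 to 30248043 and from 30248616 to 30248695. Gene number and level did not run in parallel among the box readers. Per gene, Leu-TAG-1-X had 66954 TMM in neuroblast-biased and 104159 in neuron-biased brains, while Leu-CAG-1-X had 16083 and 24818.

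Leu-CAA-1-1 has a single gene on 2R, at 13432668 to 13432794 and inside *ATP8A*, which encodes a phospholipid flippase. It is 1852 bp from Leu-CAA-2-1, a gene of Leu-CAA-2-X, from 13430695 to 13430815. The other genes of Leu-CAA-2-X are on 3L from 13214109 to 13214233 and on 3R from 23601333 to 23601455. Divided over its 3 genes, Leu-CAA-2-X had the lowest TMM per gene of the leucine isodecoders, 2097 in neuroblast-biased and 3079 in neuron-biased brains. Undivided, its mean was not the lowest of them in neuron-biased brains. The Leu-CAA genes span 121 to 127 bp, intron included.

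Each Leu-TAA isodecoder has a single gene of 84 bp. That of Leu-TAA-4-1 is inside *jar*, the gene of myosin VI, on 3R (24265259 to 24265342), and that of Leu-TAA-2-1 is on the same arm (24112964 to 24113047) in no other span. Leu-TAA-1-1 is inside *bon* on 3R (20604749 to 20604832), and Leu-TAA-3-1 on 2L from 15132306 to 15132389, within no other span. No other tRNA gene lies within 10000 bp of any of these 4. Exon structure and strand were not annotated for these spans.

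The mitochondrial leucine tRNAs, which serve translation inside the organelle, are separate genes. mito:Leu-TAG had a mean TMM of 19413 in neuroblast-biased and 7356 in neuron-biased brains, a log2 ratio of 1.40, and mito:Leu-TAA had 17087 and 17101.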

How the data were processed

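The authors trimmed hydro-tRNAseq reads (cutadapt), mapped them to collapsed mature tRNA sequences (subread-align), kept alignments above a mapping quality, and counted them with multi-mapped reads split between references (featureCounts). Normalization (TMM) and batch correction followed in NOISeqBio. The deposited values are a normalized signal, the authors' mean TMM per tRNA over the 3 samples of a group. The batches are not given in the sources used here, and neither is depth per sample. The table also holds the authors' fold changes, probabilities, q-values and calls, which were not used. Ratios, sums and shares were calculated with Python 3.11.15, numpy 2.4.6 and pandas 2.3.3, without a pseudocount or filter, and checked on simulated data. Figures were drawn with matplotlib 3.10.9. Other scalings, a pseudocount, a filter, averaging over isodecoders, values per base and pools without single tRNAs were tried as alternatives. No test was made, since each group has 1 mean. All 84 nuclear isodecoders were matched by name to RefSeq genes of Release 6. All leucine isodecoders are named. The pools named are the 3 nearest to leucine in log2 ratio and the extremes, and valine and serine were named after their values were seen. Members, lists and alternatives were chosen with earlier results of these data known.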

Additional observations from a re-analysis of the deposited data

How the results depend on the processing

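The log2 ratio of the leucine pool (−0.61) stayed below 0 under every alternative run. It was −0.31 with the groups scaled to equal nuclear sums, −0.34 with the nuclear median set to 0, −0.45 as the mean of the log2 ratios, −0.63 over isodecoders with a mean TMM of at least 10000 and −0.56 without Leu-CAA-1-1. The count of isodecoders lower by at least 0.5 (6 of 9) was 1 under both scalings and 1 at a log2 ratio of −1 or lower. With the nuclear median set to 0, 14.3% of all nuclear isodecoders were past −0.5. Those at −1 or lower as deposited were ranks 1 to 8 of the 84 in ascending log2 ratio. With a pseudocount of 1000 TMM the count was 5. It was also 5 with the filter, but the filter applied to both means and removed Leu-CAA-2-X, Leu-TAA-3-1 and Leu-TAA-1-1 from the 9. The difference between the box readers and the other readers (0.15) reversed to −0.22 with averaged log2 ratios and to −0.23 without Leu-CAA, and was 0.64 without Leu-TAA, 0.34 with the filter and 0.12 with the pseudocount. With anticodon groups averaged over isodecoders, the change of share was −1.83 percentage points for Leu-CAA, 0.47 for Leu-TAA and 2.30 for Leu-AAG, which then exceeds that of Leu-CAA in size. The planned division by mature length was not run, because the mature length of Leu-CAA is not given in the sources used here. In its place, chosen after seeing the data, as were the pool without Leu-CAA-1-1 and the ratios of single isodecoders relative to the median, Leu-CAA was set to the shortest leucine gene and to its full gene span. The change of share was then −3.29 and −2.20 points for Leu-CAA and 1.68 and 1.61 for Leu-TAA, and the log2 ratio of the pool was −0.59 with the full span. The 9 single log2 ratios kept their sign relative to the nuclear median. No paired analysis was possible because the table holds group means, and no replicate could be left out for the same reason. How far depth limits these values is unknown here.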

Other observations

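Leu-CAA-1-1 and Leu-CAA-2-1 lie among 6 genes of Ile-AAT-1-X, an isoleucine isodecoder, within 10000 bp on 2R. Ile-AAT-1-X, encoded by 9 genes in all, had a mean TMM of 405139 in neuroblast-biased and 315907 in neuron-biased brains, a log2 ratio of 0.36 against the −1.33 of Leu-CAA-1-1. The values of the genes inside the cluster are not resolved, since reads of the 9 genes share 1 value.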
